A study of Mus musculus with 38 samples.

Results

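The core circadian clock genes *Per1*, *Per2*, *Per3*, *Cry1*, *Cry2*, *Arntl*, *Clock*, *Nr1d1*, *Nr1d2* and *Rora* were followed in the mouse soleus, a calf muscle with many slow-twitch fibers, through fasting-induced torpor. Activity was read by nAnT-iCAGE, which counts the capped 5′ ends of RNA without amplification, so that each tag marks a transcription start. A CAGE cluster was taken as a promoter of a clock gene when its highest position lay within 500 bp of a 5′ end annotated for that gene in GENCODE M21, on the same strand. Of the 10819 clusters, 11 met this rule. Each of the 10 genes had a promoter, and *Per1* had a main and a downstream one.

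The mice were male C57BL/6J, and each of the 38 libraries came from 1 mouse. Pre mice were sampled on day 1 with food in the cool, Mid mice on day 2 after food had been removed in the cool, when they were in or between bouts of torpor, and Post mice on day 3 after food was returned. The other groups were all taken on day 2. HiT mice were fasted in the warm, which prevents torpor, Fed mice kept their food in the cool, and Dep mice were fasted in the cool and kept out of torpor by gentle touching. The titles of the libraries give these groups. Where the sample descriptions or the design text conflict with them on the food of the Fed and HiT mice, the description in the study was used. Experiment #1 comprised 8 Mid mice and 4 mice in each of the other groups, and experiment #2, made with other mice, comprised 5 Mid, 3 Post and 2 Pre mice. All muscles were taken at the same hour, near the end of the dark phase, so that a shifted phase of a daily rhythm and a changed level of expression cannot be told apart.

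The mammalian clock is a transcriptional feedback loop. The activator pair CLOCK and BMAL1, the product of *Arntl*, binds E-box elements in the *Per* and *Cry* genes, whose protein products return to the nucleus and repress the pair. In an additional loop, REV-ERBα and REV-ERBβ, the products of *Nr1d1* and *Nr1d2*, repress *Arntl* through an element that RORα, the product of *Rora*, activates. In skeletal muscle the loop drives daily rhythms of fuel use, and feeding, glucocorticoids and temperature are known to set its phase in peripheral tissues.

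Most of these promoters coincided with an annotated start. Coordinates are those of mm10, counted from 1. The main *Per1* promoter peaked at position 69095281 of the plus strand of chromosome 11, 64 bp into an annotated exon. The downstream one peaked 3679 bp farther on, at 69098960, 12 bp into a shorter transcript, in its untranslated exon and in an intron of the longer one. On the minus strand, the peaks of *Per2* (chromosome 1, 91459308), *Per3* (chromosome 4, 151044621), *Cry1* (chromosome 10, 85185055), *Cry2* (chromosome 2, 92434038), *Clock* (chromosome 5, 76304774) and *Nr1d2* (chromosome 14, 18238994) lay between 2 and 44 bp from an annotated 5′ end. The peak of *Arntl*, on the plus strand of chromosome 7 at 113207549, lay 8 bp from one. *Nr1d1* had the widest cluster, of 708 bp on the minus strand of chromosome 11, with its peak at 98775233. The *Rora* cluster, on the plus strand of chromosome 9 at 69289917, lay 235 bp into a short transcript and 636131 bp from the most upstream annotated start of the gene, in an intron of the longer transcripts. It was therefore the only promoter outside a window of 100 bp. At no peak was a gene annotated on the opposite strand.

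Promoter windows of RefSeq on GRCm38.p6, the assembly that mm10 represents, overlapped 8 of the 11 clusters, all but those of *Per2*, *Rora* and the main *Per1* promoter. The stretches below are shown because they hold the elements through which the clock loop is known to act, printed 5′ to 3′ up to the base before the CAGE peak, or for Nr1d1 up to the base before the RefSeq start, with the matching letters in capitals.
Per1, downstream promoter, chr11:69098699-69098959, plus strand: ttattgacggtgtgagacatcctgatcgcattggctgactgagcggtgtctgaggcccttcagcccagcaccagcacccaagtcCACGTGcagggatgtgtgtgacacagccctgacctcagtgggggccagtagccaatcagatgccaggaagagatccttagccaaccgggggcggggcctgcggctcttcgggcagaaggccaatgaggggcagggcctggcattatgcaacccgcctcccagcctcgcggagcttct
Per3, chr4:151044622-151044915, minus strand: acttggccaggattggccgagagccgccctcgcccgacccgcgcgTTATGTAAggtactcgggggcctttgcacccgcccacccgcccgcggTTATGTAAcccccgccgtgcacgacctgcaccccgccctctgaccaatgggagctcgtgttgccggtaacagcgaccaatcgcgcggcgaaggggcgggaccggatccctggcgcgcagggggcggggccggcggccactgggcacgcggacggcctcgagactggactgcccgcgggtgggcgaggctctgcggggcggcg
Cry1, chr10:85185056-85185304, minus strand: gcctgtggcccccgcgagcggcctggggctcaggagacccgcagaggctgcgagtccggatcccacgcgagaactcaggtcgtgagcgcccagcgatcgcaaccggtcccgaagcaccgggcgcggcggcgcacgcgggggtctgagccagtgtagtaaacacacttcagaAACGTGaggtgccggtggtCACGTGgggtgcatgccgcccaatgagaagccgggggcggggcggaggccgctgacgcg
Arntl, chr7:113207261-113207548, plus strand: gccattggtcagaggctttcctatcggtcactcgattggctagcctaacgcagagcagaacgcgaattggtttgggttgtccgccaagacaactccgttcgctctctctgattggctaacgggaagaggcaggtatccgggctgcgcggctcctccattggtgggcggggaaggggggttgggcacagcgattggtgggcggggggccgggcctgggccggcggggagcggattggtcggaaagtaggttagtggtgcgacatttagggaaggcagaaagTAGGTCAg
Nr1d1, chr11:98775378-98775627, minus strand: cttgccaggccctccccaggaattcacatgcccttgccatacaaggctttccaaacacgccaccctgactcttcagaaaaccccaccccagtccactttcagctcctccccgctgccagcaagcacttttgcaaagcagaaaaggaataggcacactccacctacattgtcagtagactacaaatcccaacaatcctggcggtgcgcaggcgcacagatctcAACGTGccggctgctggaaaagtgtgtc
The E-box CACGTG lay 172 bases before the downstream peak of *Per1* and 54 bases before the peak of *Cry1*. The variant AACGTG, on the opposite strand the letters CACGTT, lay 73 bases before the peak of *Cry1*, 167 bases before that of *Nr1d1* and, in a stretch not printed, 192 bases before that of *Cry2*. The D-box TTATGTAA, bound by DBP, TEF and HLF and by their competitor NFIL3, occurred in the *Per3* stretch 242 and 195 bases before the peak. The element TAGGTCA of the REV-ERB and ROR proteins ended 2 bases before the peak of *Arntl*. The windows of *Clock* and *Nr1d2* held none of the letters searched, and the cyclic AMP element TGACGTCA was in no window of a member. Among all 32851 windows of 300 bases, searched on both strands, 7.15% held CACGTG, 4.68% CACGTT, 1.06% TTATGTAA or TTACGTAA, 6.45% TAGGTCA or TGGGTCA and 1.79% TGACGTCA. A match of letters is a description and shows no binding.

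The libraries of experiment #1 held between 18257657 and 39176649 tags in clusters (median 26580286.5) and those of experiment #2 between 9359994 and 20914855 (median 11281870). Levels are given as CPM, tags per 1000000 tags of the library after TMM normalisation, which corrects for a few promoters taking a large share of the tags, done separately in each experiment. The 10 most active promoters took between 15.1 and 40.3% of the tags, and the TMM factors ran from 0.679 to 1.21 in experiment #1 and from 0.921 to 1.07 in experiment #2. Promoters were tested with the quasi-likelihood F test of edgeR, with Benjamini-Hochberg FDRs over all clusters tested and a threshold of 0.05. Slow and oxidative muscle genes, 9 of 9 with a promoter, summed to between 13439 and 21512 CPM in experiment #1. Fast glycolytic muscle genes, also 9 of 9, summed to between 12659 and 20788 CPM. Adipocyte markers, 8 of 8, summed to between 1862 and 4768 CPM. Genes of both kinds of muscle fiber were thus present. In the HiT libraries alone, 6 macrophage markers out of 7 listed summed to between 157 and 364 CPM, against 42.0 to 99.9 in the other groups, while *Adgre1* had no promoter. The slow muscle genes summed to 13439 to 15830 CPM in HiT and to 15817 to 21512 in Mid. The fast muscle genes summed to 13598 to 15428 CPM in HiT and to 12659 to 20753 in Mid. Neutrophil markers, 4 of 7, summed to 1.56 CPM or less in experiment #1 apart from 133 in Dep 1. Red blood cell markers, 5 of 6, ran from 2018 to 2622 CPM in Post, from 2989 to 4238 in Mid, from 3601 to 5134 in Pre, from 1886 to 3285 in HiT, from 2402 to 4659 in Dep and from 2814 to 13751 in Fed, where the highest value was that of Fed 2. Without Fed 2, no clock promoter gained or lost a call from the Fed to Mid. The part of these cells in the results was not tested, and in bulk muscle fewer cells of a type and less RNA per cell cannot be told apart.

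Since CAGE counts 5′ ends, levels of different genes can be set side by side without a correction for transcript length. Over the 28 libraries of experiment #1, the most active clock promoters were *Nr1d2* with a mean of 43.7 CPM, *Arntl* with 42.8 and *Rora* with 38.6. They stood at percentiles 76.0, 75.5 and 73.1 of all promoters. *Clock* (29.1), *Cry2* (27.8) and *Nr1d1* (20.4) followed, then *Cry1* (14.7) and the main *Per1* promoter (13.6). The lowest were *Per3* (7.81), *Per2* (5.92) and the downstream *Per1* promoter, whose 2.51 CPM rested on 13 to 170 tags per library. *Per1* varied most between groups. Its highest group mean exceeded its lowest by a factor of 6.17 at the downstream promoter and of 3.48 at the main one, against 1.33 for *Clock* and 1.44 for *Cry1*.

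**Figure D1:**
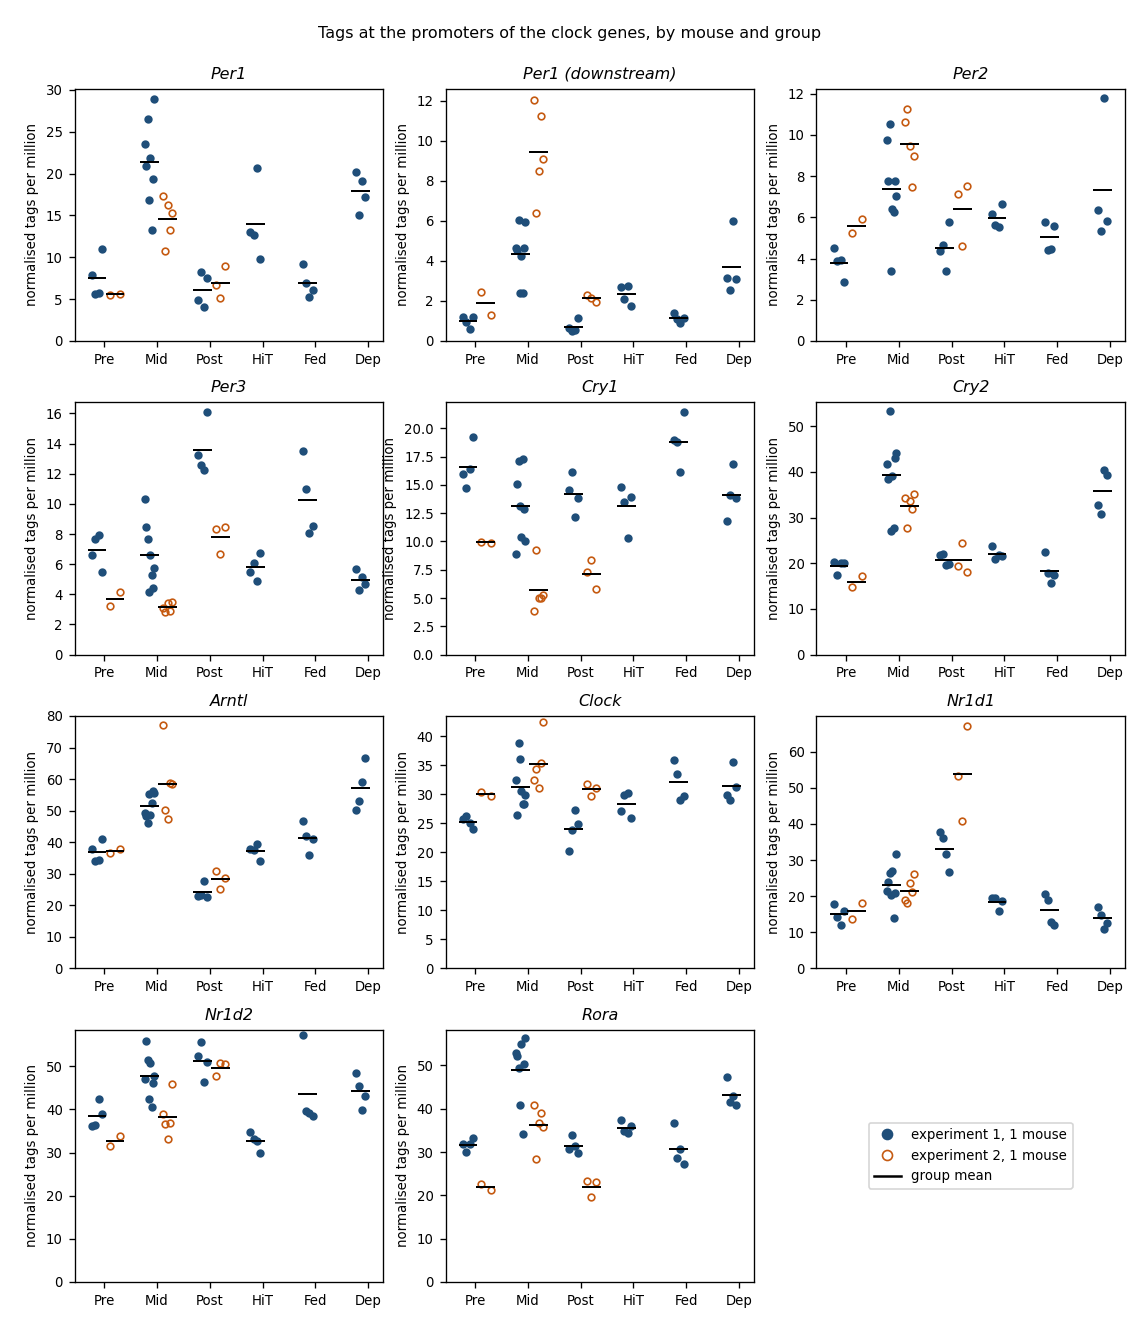
Normalised CPM (y axis, from 0) of each clock promoter in every mouse, by group, with experiment #1 as filled points, experiment #2 as open points and the group means as lines. Per1 stood between 13.3 and 28.9 in the Mid mice of experiment #1 and at or below 10.9 in the Pre, Post and Fed mice, and Nr1d1 and Per3 were highest in the Post mice.

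From the Pre to Mid, fasting and torpor came together, and their parts cannot be told apart in this comparison. In experiment #1, 9 of the 11 promoters, of 8 genes, rose and none fell, against 30.2% of all promoters called in either direction. Their changes were largest at the *Per1* promoters, *Cry2* and *Per2*, intermediate at *Nr1d1*, *Rora* and *Arntl*, and smallest at *Clock* and *Nr1d2*. *Per3* and *Cry1* did not pass the test. For 6 of the promoters the Pre and Mid ranges did not overlap, against 14.8% of all promoters. The median log2 fold change of the 11 promoters was 0.62, against 0.01 over all promoters. Without TMM, 5 promoters were called, against 1458 of all 10776 promoters. *Arntl*, *Clock*, *Nr1d1* and *Nr1d2* were then not called (edgeR, FDR 0.0552 to 0.376).

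From the Mid to Post, after the return of food, the same number of promoters changed, with 7 falling and 2 rising, against 35.0% of all promoters. *Per1*, *Per2*, *Cry2*, *Arntl*, *Clock* and *Rora* fell, and *Nr1d1* and *Per3* rose. The median log2 fold change was −0.64, against −0.01 over all promoters. *Nr1d1* was therefore higher in Mid than in Pre and higher still in Post, whereas *Per3* was raised in Post without a called change in Mid. The Mid libraries are shared by both comparisons and by the 3 that follow.

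HiT differed from Mid in temperature, Fed in food and Dep in touching, and each of them also in the lack of torpor. The parts of these cannot be told apart within a comparison. Compared with the fasted but warm HiT mice, 6 promoters of 5 genes were higher in Mid and none lower, against 41.0% of all promoters. They were both *Per1* promoters, *Cry2*, *Arntl*, *Nr1d2* and *Rora*. Compared with the Fed mice at the same cool temperature, 6 were higher (both *Per1* promoters, *Cry2*, *Arntl*, *Nr1d1* and *Rora*) and 2 lower (*Per3* and *Cry1*), against 35.2% of all promoters. Between Mid and Dep, only *Nr1d1* of the 11 differed, lower in Dep, against 2.03% of all promoters. The *Per1*, *Cry2*, *Arntl* and *Rora* promoters were thus higher in Mid than in HiT and than in Fed, in 2 comparisons that share their Mid libraries.

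**Figure D2:**
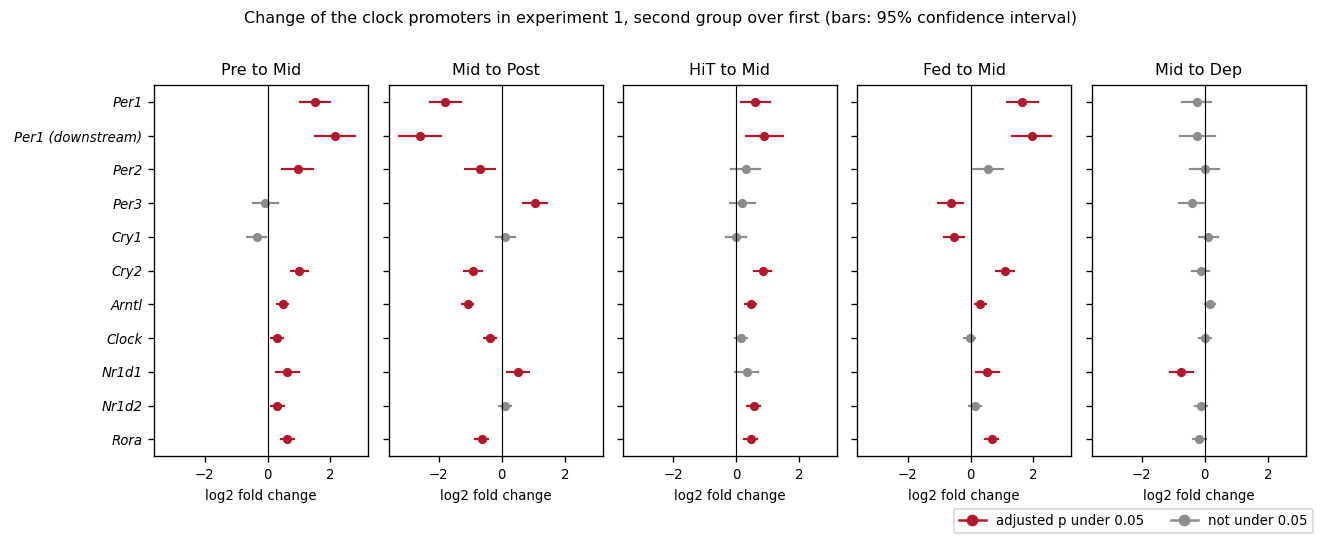
Log2 fold changes (x axis, the group named second over the one named first) of the 11 clock promoters in the 5 comparisons of experiment #1, with 95% confidence intervals and promoters with an FDR below 0.05 in red. All 9 calls from the Pre to Mid lie right of 0, 7 of the 9 from the Mid to Post lie left of it, and Nr1d1 is the 1 call from the Mid to Dep.

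The groups were also compared with the Pre mice. Post differed from Pre at 4 promoters, against 1.85% of all promoters, with *Per3*, *Nr1d1* and *Nr1d2* higher and *Arntl* lower. Fed differed from Pre only at *Clock*, which was higher, against 11.2% of all promoters. HiT differed from Pre only at the 2 *Per1* promoters, both higher, against 33.4% of all promoters. *Per2* and *Nr1d2* passed from the Pre to HiT only in some alternative fits, given below. Dep differed from Pre at 7 promoters, all higher (both *Per1* promoters, *Per2*, *Cry2*, *Arntl*, *Clock* and *Rora*), against 25.8% of all promoters. For *Cry2* and *Arntl*, the log2 fold change over Pre was 0.18 (95% interval −0.14 to 0.49) and 0.01 (−0.18 to 0.21) in HiT, and 0.88 (0.56 to 1.19) and 0.64 (0.44 to 0.83) in Dep. Without TMM, the calls against Pre numbered 1 in Post (*Nr1d1*), 0 in Fed and HiT and 3 in Dep (both *Per1* promoters and *Cry2*). Of all 10776 promoters, that fit called 21 in Post, 6 in Fed, 1974 in HiT and 1444 in Dep.

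*Arntl* encodes BMAL1, the activator without which the loop stops. In the Pre libraries it stood at 37.8, 34.1, 34.3 and 41.0 CPM, and the 8 Mid libraries ran from 45.9 to 56.1 with a median of 50.7. All Mid libraries lay above all Pre libraries, and the log2 fold change was 0.48 (SE 0.08, edgeR, FDR 9.48e-05). The Post libraries, at 23.1, 23.3, 27.8 and 22.7 CPM, lay below every other library of experiment #1. The fall from the Mid to Post, of 1.09 on the log2 scale (SE 0.09, edgeR, FDR 1.48e-09), had the smallest FDR of any clock promoter in any comparison of experiment #1. It took *Arntl* below its Pre level, with a log2 fold change from the Pre to Post of −0.61 (SE 0.10, edgeR, FDR 0.000891). The 4 HiT libraries ran from 33.9 to 39.5 and overlapped Pre, with an HiT to Mid change of 0.47 (edgeR, FDR 7.77e-05). The Fed libraries, at 46.6, 41.9, 36.0 and 41.1, overlapped Mid in Fed 1 alone, and the Fed to Mid change of 0.31 was still called (edgeR, FDR 0.00451). Dep had the highest mean, with 50.2, 53.0, 59.1 and 66.6 CPM, and its difference from Mid was 0.16 (95% interval −0.01 to 0.32, edgeR, FDR 0.296). Without TMM, *Arntl* kept its calls against HiT and Post, but not those from the Pre to Mid (edgeR, FDR 0.0626), the Fed to Mid (0.368) or the Pre to Post (0.107).

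*Clock* encodes the partner of BMAL1 and moved little. Its group means ran from 24.1 ± 2.88 (SD, n = 4) in Post and 25.3 ± 0.932 (SD, n = 4) in Pre to 31.3 ± 4.24 (SD, n = 8) in Mid, 31.4 ± 2.93 (SD, n = 4) in Dep and 32 ± 3.2 (SD, n = 4) in Fed. The rise from the Pre to Mid was 0.31 on the log2 scale (SE 0.09, edgeR, FDR 0.0133) and the fall from the Mid to Post was 0.38 (SE 0.09, edgeR, FDR 0.00249). It was also called from the Pre to Fed, with 0.34 (SE 0.11, edgeR, FDR 0.0403), a call that was lost in 9 of the fits that left out 1 library, with FDRs between 0.0507 and 0.158. HiT, with 28.3 ± 2.08 CPM (SD, n = 4), lay between Pre and Mid, with a Pre to HiT change of 0.16 (95% interval −0.06 to 0.38) and an HiT to Mid change of 0.15 (−0.04 to 0.34) that did not pass. Without TMM the Mid to Post call was lost (−0.36, edgeR, FDR 0.151). The Pre to Mid call was lost when only the compared groups were fitted (edgeR, FDR 0.0519), and the Pre to Dep call (0.31, edgeR, FDR 0.0305) was lost without Pre 1, Pre 3, Pre 4 or Dep 3, with FDRs from 0.0501 to 0.111.

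*Per1*, a repressor of the loop that also responds quickly to hormones and other signals, had the largest changes. At the main promoter the Pre libraries stood at 7.84, 5.66, 5.68 and 10.9 CPM, and Mid ran from 13.3 to 28.9 with a median of 21.4. In Post it stood at 4.84, 8.21, 4.06 and 7.47. No Mid library reached the range of Pre or Post. The change was 2.84-fold from the Pre to Mid (log2 1.51, SE 0.24, edgeR, FDR 3.2e-05) and −1.80 on the log2 scale from the Mid to Post (SE 0.24, edgeR, FDR 2.79e-06). The Fed libraries, from 5.31 to 9.22, overlapped Pre, and the Dep libraries, from 15 to 20.2, in the range of Mid. The HiT libraries, at 13.1, 12.6, 20.6 and 9.76, had a mean between them, above Pre by 0.90 (SE 0.26, edgeR, FDR 0.00889) and below Mid by a difference of 0.61 (SE 0.22, edgeR, FDR 0.0312). Neither call held in every fit that left out 1 library. The Pre to HiT call was lost without HiT 3, with a change of 0.64 (edgeR, FDR 0.0544), and the HiT to Mid call without Mid 3, HiT 1, HiT 2 or HiT 4, with FDRs from 0.0523 to 0.100. The macrophage markers were raised in the same HiT libraries, and their part in this was not tested.

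The downstream *Per1* promoter, the one with the E-box printed above, moved in the same directions from a far lower level. It gave 1.19, 0.938, 0.609 and 1.22 CPM in Pre, from 2.41 to 6.03 in Mid (median 4.58) and 0.645, 0.488, 0.563 and 1.13 in Post. The Mid libraries again lay apart from both groups. The change was 4.38-fold from the Pre to Mid (log2 2.13, SE 0.31, edgeR, FDR 1.23e-05) and −2.60 on the log2 scale from the Mid to Post (SE 0.32, edgeR, FDR 7.79e-07). HiT ran from 1.76 to 2.77 CPM, above Pre by 1.23 (SE 0.33, edgeR, FDR 0.00539) and below Mid by a difference of 0.90 (SE 0.28, edgeR, FDR 0.0134).

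The share of *Per1* tags that started at the downstream promoter tests whether both promoters changed by the same factor. It was 11.8 ± 2.26% (SD, n = 4) in Pre, 16.7 ± 2.13% (SD, n = 8) in Mid and 10.7 ± 3.43% (SD, n = 4) in Post. The share ran from 9.68 to 14.2% in Pre and from 12.5 to 19.4% in Mid, so that the groups overlapped. The log2 ratio of the 2 promoters was higher by 0.57 in Mid than in Pre (exact permutation test, two-sided, p = 0.0121, adjusted over 5 comparisons 0.0303) and changed by −0.77 from the Mid to Post (exact permutation test, two-sided, p = 0.00808, adjusted 0.0303). HiT (14.6 ± 2.19%, SD, n = 4), Fed (14.4 ± 1.28%, SD, n = 4) and Dep (16.8 ± 4.81%, SD, n = 4) did not pass the test against Mid, with log2 ratio differences of 0.22 from the HiT to Mid, 0.24 from the Fed to Mid and −0.015 from the Mid to Dep (exact permutation tests, adjusted p = 0.207, 0.155 and 0.978). With a pseudocount of 5 tags in place of 0.5, both calls were lost (exact permutation test, adjusted p = 0.0707 for each). The downstream promoter had 13 to 37 tags in the Pre and Post libraries. In experiment #2 the downstream share was higher throughout, at 18.7 to 31% in Pre, 34.3 to 45.9% in Mid and 17.9 to 29.6% in Post. The experiments were sequenced and normalised separately, and their difference in share was not tested.

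**Figure D3:**
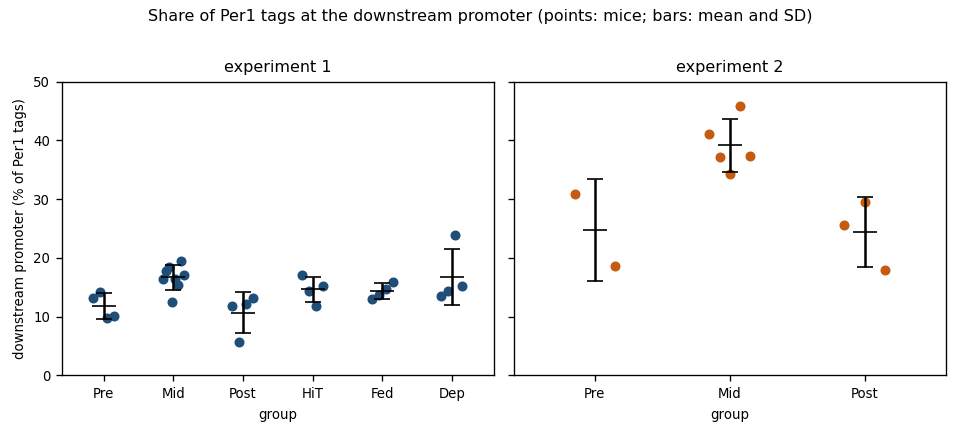
Share of all Per1 tags that fell in the downstream promoter (y axis, %), by group, with points for mice and bars for the mean and SD, in experiment #1 (left) and experiment #2 (right). The Mid mean of 16.7% in experiment #1 stands above the Pre mean of 11.8% and the Post mean of 10.7% with overlapping ranges, and in experiment #2 the Mid mice lie between 34.3 and 45.9%.

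*Per2*, a repressor closely related to *Per1*, had lower levels and more overlap. Pre libraries stood at 4.5, 3.89, 3.94 and 2.88 CPM, and Mid ran from 3.41 to 10.5 with a median of 7.40. The lowest Mid library, Mid 4, lay inside the Pre range. The rise was 1.94-fold (log2 0.95, SE 0.23, edgeR, FDR 0.00295). In Post it stood at 4.36, 4.65, 3.38 and 5.76, a change of −0.70 (SE 0.23, edgeR, FDR 0.0207) that was lost without Post 1 (FDR 0.0528) or Post 3 (FDR 0.0922) and without TMM (FDR 0.0980). Against Fed (5.04 ± 0.717, SD, n = 4) and HiT (5.99 ± 0.515, SD, n = 4), the Mid difference of 0.55 and 0.30 did not pass the test (edgeR, FDR 0.0631 and 0.299), although the Fed to Mid change passed with DESeq2 (FDR 0.0417) and with all libraries and experiment as a term (edgeR, FDR 0.043). The HiT libraries, from 5.53 to 6.64, lay above every Pre library, but the change of 0.65 did not pass (edgeR, FDR 0.0565). It passed with the likelihood ratio test (FDR 0.047), DESeq2 (FDR 0.0476), only the compared groups (edgeR, FDR 0.0168) and experiment as a term (edgeR, FDR 0.0285). The Dep libraries, at 6.37, 5.33, 11.8 and 5.81, also lay above every Pre library (log2 fold change 0.95, edgeR, FDR 0.00851). That Dep call was lost without Dep 3, with a change of 0.62 (edgeR, FDR 0.0721).

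*Per3*, a paralog whose loss leaves the loop running, had a pattern of its own. In Pre it stood at 6.58, 7.64, 7.95 and 5.47 CPM and in Mid at 4.16 to 10.3 (median 6.2), with overlapping ranges and a log2 fold change of −0.07 (95% interval −0.46 to 0.32, edgeR, FDR 0.82). In Post it stood at 13.3, 12.6, 12.2 and 16.1, above every Pre and every Mid library. The Post level was 2.06-fold that of Mid (log2 1.04, SE 0.18, edgeR, FDR 8.62e-05) and 1.96-fold that of Pre (log2 0.97, SE 0.22, edgeR, FDR 0.0199). The call against Pre was lost without Pre 1, Pre 4 or Post 4, with FDRs from 0.057 to 0.0797. The Fed libraries were the next highest, at 13.5, 11, 8.07 and 8.56. The change from the Fed to Mid, of −0.63 (SE 0.19, edgeR, FDR 0.00989), was lost without Fed 1, where it was −0.48 (FDR 0.0717), and with only the compared groups (FDR 0.0514). HiT and Dep had 5.78 ± 0.810 and 4.95 ± 0.596 CPM (SD, n = 4 each), and all Fed and Post libraries lay above every HiT and Dep library. Food alone did not separate the groups. The Pre mice also had food, and their libraries overlapped both HiT and Dep, while the range of the fasted Mid mice overlapped that of Fed.

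The *Cry* genes encode the main repressors that pair with the PER proteins, and they diverged. *Cry2* stood at 20.3, 17.5, 20.1 and 20.1 CPM in Pre and from 27 to 53.3 in Mid (median 40.4). In Post it ran from 19.5 to 22.0, in HiT from 20.8 to 23.7 and in Fed from 15.6 to 22.4. All of these lay below the lowest Mid library and below the Dep libraries, which stood at 32.7, 30.7, 40.3 and 39.4. The rise from the Pre to Mid was 2.02-fold (log2 1.01, SE 0.14, edgeR, FDR 4.78e-06) and the change from the Mid to Post was −0.92 (SE 0.14, edgeR, FDR 1.01e-05). Mid was above HiT by 0.84 and above Fed by 1.11 (SE 0.14 each, edgeR, FDR 2.4e-05 and 1.29e-06). Between Mid and Dep the difference was −0.14 (95% interval −0.41 to 0.13, edgeR, FDR 0.597). *Cry1* was called in 1 comparison of 9. It was higher in Fed, with 19, 18.8, 16.2 and 21.4 CPM, than in Mid, with 8.89 to 17.3 (median 13), by a Fed to Mid change of −0.52 (SE 0.15, edgeR, FDR 0.00723). From the Pre (16.6 ± 1.92, SD, n = 4) to Mid, the change of −0.34 did not pass (SE 0.15, edgeR, FDR 0.0845), but it passed without Mid 3 or Mid 6 (FDR 0.0371 and 0.0333), with upper-quartile scaling (−0.41, FDR 0.0337) and with all libraries and experiment as a term (−0.49, FDR 0.0041).

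*Nr1d1* encodes REV-ERBα, a repressor of *Arntl* and a regulator of lipid metabolism in muscle. In Pre it stood at 17.8, 14.1, 12.1 and 15.8 CPM and in Mid from 14 to 31.6 (median 22.7), with the lowest Mid library, Mid 6, inside the Pre range. The rise was 0.63 on the log2 scale (SE 0.17, edgeR, FDR 0.00746). In Post it stood at 37.8, 36.2, 31.6 and 26.7, above every Pre library and overlapping Mid, with a change of 1.14 from the Pre (SE 0.20, edgeR, FDR 0.00195) and of 0.51 from the Mid (SE 0.17, edgeR, FDR 0.018). The Mid to Post call was lost without Post 1 (0.44, FDR 0.0657) or Post 2 (0.47, FDR 0.060) and without TMM (0.51, FDR 0.0603). The Dep libraries, at 16.9, 14.7, 11 and 12.6, overlapped Pre, and the change from the Mid to Dep was −0.75 (SE 0.18, edgeR, FDR 0.0287). It was the only clock promoter at which Dep departed from Mid. The call was lost without Dep 2, Dep 3 or Dep 4 (edgeR, FDR 0.063 to 0.0877). It was also lost without TMM, with only the compared groups and with all libraries and experiment as a term (edgeR, FDR 0.0626 to 0.147). Of all promoters, these fits called, in that order, 9, 2 and 186 from the Mid to Dep, in place of 219. The Fed libraries, at 20.5, 19, 12.9 and 11.9, were lower than Mid by a difference of 0.54 (SE 0.17, edgeR, FDR 0.018), a call lost without Fed 3 or Fed 4 (FDR 0.071 and 0.0913), without TMM (0.108), with only the compared groups (0.0722) and with all libraries and experiment as a term (0.0589). HiT ran from 15.9 to 19.6 and did not pass the test against Mid (0.33, 95% interval −0.02 to 0.69, edgeR, FDR 0.127), except without Mid 6 (0.43, FDR 0.0231).

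*Nr1d2* encodes REV-ERBβ, which overlaps with REV-ERBα in function. It rose from 38.4 ± 2.91 CPM in Pre (SD, n = 4) to 47.7 ± 4.95 in Mid (SD, n = 8), by 0.31 on the log2 scale (SE 0.10, edgeR, FDR 0.0144), and stood at 51.3 ± 3.89 in Post (SD, n = 4). The Pre to Mid call was lost without Pre 1 (FDR 0.0533) or Pre 2 (FDR 0.0555). The Pre to Post change of 0.42 (SE 0.11, edgeR, FDR 0.0427) was lost in 10 fits that left out 1 library, with FDRs from 0.0512 to 0.141. Its lowest group was HiT, with 34.8, 33.1, 32.6 and 29.8, below every library of any other group of experiment #1. The HiT to Mid difference was 0.55 (SE 0.10, edgeR, FDR 6.45e-05). Against Pre, the HiT change of −0.24 did not pass (SE 0.11, edgeR, FDR 0.097). It passed with upper-quartile scaling (−0.31, edgeR, FDR 0.0215) and with only the compared groups (−0.26, edgeR, FDR 0.0217). The macrophage markers were raised in these same HiT libraries, and their part was not tested.

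*Rora* encodes RORα, the activator that competes with the REV-ERB proteins. The promoter in use lay far inside the gene, as described above. In Pre it stood at 31.7, 30.01, 31.9 and 33.3 CPM and in Mid from 34.3 to 56.4 (median 51.3), without overlap, a rise of 0.62 on the log2 scale (SE 0.10, edgeR, FDR 3.94e-05). In Post it stood at 30.6, 33.9, 31.4 and 29.7, a change of −0.64 (SE 0.10, edgeR, FDR 2.01e-05) back into the range of Pre and Fed, where Fed ran from 27.1 to 36.7 CPM. HiT, at 37.4, 34.7, 34.3 and 36.1, lay above all Pre libraries and overlapped Mid only in the lowest Mid library, Mid 6. The HiT to Mid difference was 0.46 (SE 0.10, edgeR, FDR 0.000661), and the Fed to Mid difference was 0.67 (SE 0.10, edgeR, FDR 1.27e-05). The Dep libraries, from 40.9 to 47.3, lay inside the Mid range and above every Pre library, by 0.44 (SE 0.11, edgeR, FDR 0.00454).

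**Figure D4:**
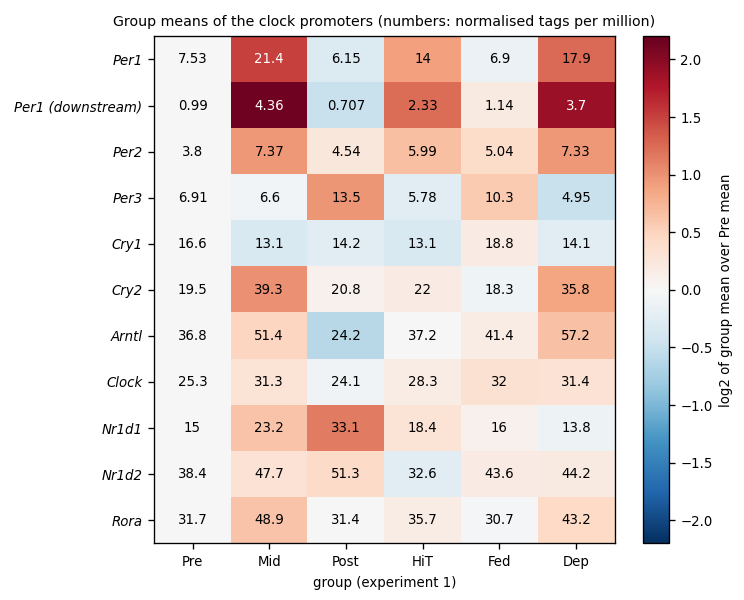
Group means of the 11 clock promoters in experiment #1, with the mean in normalised CPM written in each cell and the color giving its log2 ratio to the Pre mean. Per1 and Cry2 are raised in the Mid (21.4 and 39.3) and Dep (17.9 and 35.8) columns, and in the Post column Arntl is at its lowest (24.2) while Nr1d1 and Per3 are at their highest (33.1 and 13.5).

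In order of group means, *Per1*, at both promoters, and *Per2* ran from Mid through Dep and HiT down to the Pre, Fed and Post groups. *Cry2* and *Rora* also began with Mid and Dep, and the Dep range did not overlap that of HiT below it. At *Rora* and at the downstream *Per1* promoter, HiT in turn did not overlap the next group. *Arntl* began with Dep and Mid and ended with Post, which stood apart from the next group. *Nr1d1* and *Nr1d2* began with Post and Mid, and *Per3* with Post and Fed, which overlapped each other and not Pre below them. For *Clock* and *Cry1*, which both began with Fed, every neighbouring pair of groups in the order overlapped, as did every pair for the main *Per1* promoter, *Per2* and *Nr1d1*.

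Experiment #2 gave the same 2 comparisons in other mice. From the Pre to Mid, 5 promoters rose and none fell, against 9.74% of all promoters, namely both *Per1* promoters, *Cry2*, *Arntl* and *Rora*. From the Mid to Post, 8 changed, against 16.4% of all promoters, with *Per3*, *Nr1d1* and *Nr1d2* rising and both *Per1* promoters, *Cry2*, *Arntl* and *Rora* falling. *Arntl* stood at 36.6 and 37.7 CPM in Pre, at 77.3, 50.3, 47.4, 58.6 and 58.5 in Mid and at 30.9, 25.1 and 28.6 in Post, with no overlap between any of the groups. Its log2 fold changes were 0.65 (SE 0.17, edgeR, FDR 0.0409) and −1.04 (SE 0.15, edgeR, FDR 0.00119). *Nr1d1* stood at 13.6 and 18.1 in Pre, at 18.9, 18, 23.6, 21.2 and 26 in Mid and at 53.3, 40.9 and 67.2 in Post. All Post libraries lay above all Mid libraries, with a change of 1.32 (SE 0.17, edgeR, FDR 0.000539). *Per3* stood at 3.23 and 4.15 in Pre, from 2.86 to 3.48 in Mid and at 8.35, 6.69 and 8.45 in Post, a Mid to Post change of 1.31 (SE 0.17, edgeR, FDR 0.000603). *Cry2* rose from 14.8 and 17.1 to between 27.8 and 35.1 (log2 fold change 1.03, SE 0.14, edgeR, FDR 0.00251).

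Direction was shared at all 11 promoters in each of the 2 comparisons, against 75.2% of all promoters on entry into torpor and 75.1% after the return of food. The number called in both experiments in the same direction was 5 from the Pre to Mid, against 8.21% of all promoters. From the Mid to Post it was 7, against 13.8%. *Per2*, called in experiment #1, did not pass in experiment #2 (0.78, edgeR, FDR 0.0543, and −0.57, edgeR, FDR 0.0686), but with DESeq2 it passed in both comparisons (FDR 0.0169 and 0.0421). The test of the difference between experiments called 0.0% of all promoters for the Pre to Mid change and 0.0% for the Mid to Post change. This is 0 of 10819 in each. At an unadjusted p below 0.05 it gave, in that order, 551 and 682 of all promoters by edgeR's quasi-likelihood test, and 0 and 2 of the clock promoters. The likelihood ratio test of edgeR called 4 and 1 of all promoters and no clock promoter. The 2 were *Nr1d1* and *Per1*. *Nr1d1* rose more from the Mid to Post in experiment #2, by a difference of 0.80 (SE 0.26, edgeR, adjusted p 0.767). *Per1* fell less there, with −1.06 in place of −1.80, a difference of 0.73 (SE 0.34, edgeR, adjusted p 0.773).

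With 2 Pre libraries, the calls of experiment #2 rested on few mice. From the Pre to Mid, *Per1* and *Rora* were lost without Pre 5 or Pre 6 (edgeR, FDR 0.0699 to 0.102), and *Arntl* without Pre 5, Pre 6, Mid 12, Mid 13 or Post 5 (edgeR, FDR 0.0504 to 0.216). *Nr1d2* was lost from the Mid to Post without Mid 12, Post 6 or Post 7 (edgeR, FDR 0.0604 to 0.0824). Lane 3 held both Pre and 4 Mid libraries and lane 4 held Mid 13 and all Post libraries. Within lane 3, *Per1*, its downstream promoter, *Cry2* and *Rora* were still called from the Pre to Mid and *Arntl* was not (edgeR, FDR 0.0936). That fit called 555 of all promoters, in place of 1053. With lane as a term, 4 clock promoters were called from the Mid to Post, against 485 of all promoters, in place of 1772 without that term. The calls of *Per1*, *Per3*, *Nr1d1*, *Nr1d2* and *Rora* were lost (edgeR, FDR 0.0585 to 0.65). One of the 4 was *Clock*, which gained its call in that fit, with a change of −0.45. Within a lane, Mid and Post can be compared only through Mid 13.

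**Figure D5:**
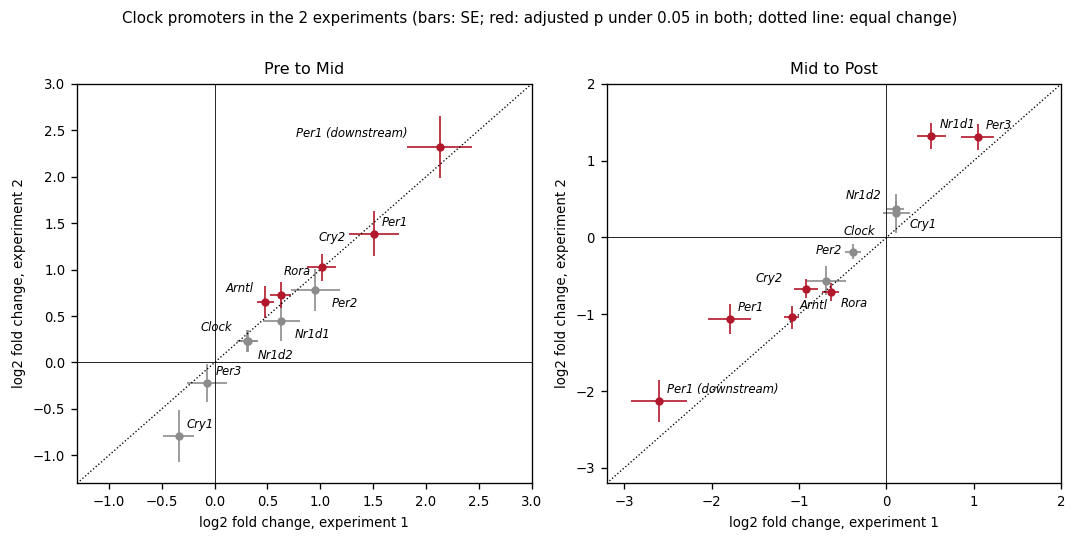
Log2 fold changes of the clock promoters in experiment #1 (x axis) and experiment #2 (y axis) from the Pre to Mid (left) and from the Mid to Post (right), with SE bars, promoters with an FDR below 0.05 in both experiments in red and a dotted line of equal change. All 11 promoters lie in a quadrant of equal sign in both panels, and Nr1d1 lies above the line from the Mid to Post, at 0.51 and 1.32.

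Covariation between mice was examined for 6 pairs of clock genes, on log2 levels after removing the group means, by permuting libraries within groups. In experiment #1 (n = 28), 2 pairs varied together. *Per2* and *Per3* had a Pearson r of 0.61 (permutation test, p = 0.00233, adjusted 0.0140) and a Spearman rho of 0.59 (permutation test, adjusted 0.0193), with an r of 0.57 without the 2 libraries farthest from the median. *Nr1d1* and *Nr1d2* had an r of 0.56 (permutation test, p = 0.00751, adjusted 0.0225) and a rho of 0.55 (permutation test, adjusted 0.0257), with an r of 0.45 without the 2 farthest. This call was lost without Mid 6 (r = 0.49, permutation test, adjusted p = 0.129) and without Fed 1, Fed 3 or Fed 4 (r from 0.49 to 0.54, adjusted p from 0.0690 to 0.0780), whereas *Per2* and *Per3* passed for r whichever library was left out. The pairs *Arntl* and *Clock* (r = 0.25), *Per1* and *Per2* (0.30), *Arntl* and *Per2* (−0.29) and *Arntl* and *Nr1d1* (0.01) did not pass (permutation test, adjusted p from 0.243 to 0.973). In experiment #2 (n = 10) no pair passed (permutation test, adjusted p of 0.675 or more for r), with an r of 0.52 for *Per2* and *Per3* that was −0.0087 without the 2 farthest, and of 0.28 for *Nr1d1* and *Nr1d2*. Within the 8 Mid mice of experiment #1 alone, r was 0.71 and 0.70 for these pairs (permutation test, adjusted p = 0.164 for both). Without TMM, *Arntl* and *Clock* (r = 0.78, permutation test, adjusted p = 0.00069) and *Per1* and *Per2* (r = 0.48, adjusted p = 0.0181) also passed.

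Other genes of the clock were listed beside the members, namely further activators, output factors, kinases, ubiquitin ligases and cofactors. Of 28 listed genes, 22 had a promoter, and *Arntl2*, *Rorb*, *Ciart*, *Timeless*, *Fbxl21* and *Gsk3b* had none under the rule. From the Pre to Mid, 6 rose and 2 fell, against 30.2% of all promoters called, with a median log2 fold change of 0.28. From the Mid to Post, 5 rose and 13 fell, against 35.0% of all promoters, with a median of −0.46. From the HiT to Mid 8 were higher and 3 lower, against 41.0% of all promoters, and from the Fed to Mid 5 and 5, against 35.2%. In Dep 0 were higher and 3 lower than in Mid, against 2.03%. In experiment #2, 3 rose and 1 fell from the Pre to Mid, against 9.74% of all promoters, and 3 rose and 8 fell from the Mid to Post, against 16.4%. The counts from the Pre to Mid and against HiT and Fed in experiment #1 were thus near the share of all promoters. The 2 genes that fell from the Pre to Mid, *Bhlhe40* and *Bhlhe41*, encode repressors (DEC1 and DEC2) that compete with CLOCK and BMAL1 for E-boxes. *Bhlhe40* went from 46.5 ± 4.84 CPM in Pre (SD, n = 4) to 15.2 ± 4.43 in Mid (SD, n = 8) and 56.1 ± 2.47 in Post (SD, n = 4), with changes of −1.62 (SE 0.15, edgeR, FDR 3.53e-08) and 1.89 (SE 0.15, edgeR, FDR 1.31e-09). *Nfil3*, a repressor that binds the D-box, moved the other way, with 27.3 ± 4.46, 41.2 ± 5.52 and 12 ± 0.666 CPM. The deubiquitinase gene *Usp2* was called in all 5 study comparisons, higher in Mid each time. From the Mid to Dep it fell by 0.55 on the log2 scale (edgeR, FDR 0.0163).

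Genes known as targets of signals that reset peripheral clocks were listed as well. Such lists do not measure the signals, and the part of the signals in the clock changes was not tested. Of 9 glucocorticoid targets, a class that also includes *Per1*, 8 rose from the Pre to Mid, with a median of 1.2, and 8 fell from the Mid to Post, with a median of −1.51, against medians of 0.01 and −0.01 over all promoters and 30.2 and 35.0% of all promoters called. From the HiT to Mid 6 rose and none fell, against 41.0% of all promoters, and likewise from the Fed to Mid, against 35.2%. Between Mid and Dep 1 rose and 1 fell, against 2.03%. *Tsc22d3* rose by 1.57 on the log2 scale from the Pre to Mid (SE 0.24, edgeR, FDR 1.94e-05), and *Fkbp5* by 1.2 (SE 0.21, edgeR, FDR 0.000116). In experiment #2, 6 rose from the Pre to Mid, against 9.74% of all promoters, and 8 fell from the Mid to Post, against 16.4%. Of 9 cyclic AMP and immediate early genes, 6 had a promoter, of which 2 rose and 1 fell from the Pre to Mid, against 30.2% of all promoters. From the Mid to Post, 3 fell, against 35.0%. *Sik1* rose by 1.2 (SE 0.34, edgeR, FDR 0.00829), and *Nr4a1* changed by −0.91 (SE 0.30, edgeR, FDR 0.0234). From the HiT to Mid, all 6 of these changed, 2 higher and 4 lower, against 41.0% of all promoters. Of 8 temperature-responsive genes, 1, the heat shock gene *Hspa1a*, rose from the Pre to Mid (0.84, SE 0.22, edgeR, FDR 0.00483), against 30.2% of all promoters called, and 6 changed from the HiT to Mid, 3 in each direction, against 41.0%. The cold-inducible *Cirbp* was higher in Mid than in HiT (0.46, SE 0.09, edgeR, FDR 0.000356) and than in Fed (0.26, SE 0.09, edgeR, FDR 0.0334), with a Pre to Mid change of 0.23 (SE 0.09, edgeR, FDR 0.0651). It was also called lower in Dep than in Mid. Its means were 69.0 CPM in Mid and 71.8 in Post in experiment #1, and 90.4 and 108 in experiment #2.

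The promoters whose levels over the 28 libraries of experiment #1 were most like those of 4 members were searched for among the 9940 promoters with a mean of 5 CPM or more. For *Arntl* they were *Slc41a3* (r = 0.92) and *Nfil3* (0.90). For *Nr1d1* they were the output factor *Dbp* (0.82), *Eif5* (0.75) and *Gsto1* (0.71). *Per1* was closest to *S1pr1* (0.96), *Ddit4* (0.95), one of the glucocorticoid targets above, and *Cnksr1* (0.94), and *Per2* to *Acer2* (0.84) and *Irak2* (0.81). These are descriptions over libraries that share their groups and their scaling.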

How the data were processed

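Soleus RNA of 38 mice was sequenced by nAnT-iCAGE. The authors mapped the reads to mm10 (GRCm38) with BWA and HISAT2, whose versions are not given in the sources used here, and grouped 5′ ends into clusters with PromoterPipeline. They deposited tag counts per cluster and library, not normalised, which were tested here, and the same values as TPM, deposited per 1000000 tags of a library, which served only as a check. Depth is given in the report, and tags are counted without amplification. Groups were taken from the titles.

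For experiment #1, 1 model with a term for group held 28 libraries and the 10776 clusters with any tag, so that all groups shared 1 spread (common dispersion 0.0377), and the 10 libraries of experiment #2 had a model of their own over 10816 clusters (0.0391). TMM, the quasi-likelihood F test of edgeR 4.0.16 in R 4.3.3 and Benjamini-Hochberg adjustment over all clusters were used, and differences between experiments were tested as an interaction in all 38 libraries. The shares of Per1 tags were compared as log2 ratios with a pseudocount of 0.5 by exact permutation tests (scipy 1.17.1), and covariation used 100000 permutations. Of 10819 clusters, 9615 were assigned to 9077 genes. The scripts were tested on simulated counts. No 2 libraries of a group were duplicates, with a lowest chi-square per promoter of 12.4 over 72 pairs.

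The members and gene lists were chosen with earlier results of these data known. All members are named. Of each other list, genes called in at least 3 of the 5 study comparisons could be named, at most 8 per list, and of the likeness search up to 3 of the closest. Values of some genes that this rule takes are not reported here. Alternatives were the likelihood ratio test, DESeq2 1.42.0, library size without TMM, upper-quartile scaling, filterByExpr, only the groups compared, a model of all libraries that includes experiment, blocking on the replicate number, tags summed per gene, a window of 100 bp, lane, and each library left out. Other genes and the shape of peaks were not analysed here.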

Additional observations from a re-analysis of the deposited data

Results flagged for a closer look

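Within each group of 4 to 10 libraries, the gap of the highest or lowest library to its neighbour was compared with the range of the group by Dixon's criterion, which chance passes in about 5% of groups. It was passed in 5 of the 77 groups tested. *Per2* stood at 11.8 CPM in Dep 3, against 5.33 to 6.37 in the other Dep libraries. *Arntl* stood at 27.8 in Post 3, against 22.7 to 23.3 in the other Post libraries, which is still below every Pre and Mid library. *Nr1d2* stood at 57.2 in Fed 1, against 38.4 to 39.7 in the other Fed libraries, and *Cry2* at 17.5 in Pre 2, against 20.1 to 20.3. In experiment #2, *Cry1* stood at 9.24 in Mid 10, against 3.87 to 5.29 in the other Mid libraries, and without Mid 10 its change from the Pre to Mid was −1.04 (edgeR, FDR 0.0083), which passed the threshold that −0.79 (edgeR, FDR 0.111) had missed. Without Fed 1, *Nr1d2* was called from the Fed to Mid (0.29, edgeR, FDR 0.0116).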

How the results depend on the processing

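The counts of clock promoters called stayed within 1.5 times of the value reported with the likelihood ratio test, DESeq2, upper-quartile scaling, filterByExpr and a window of 100 bp. Over single promoters and all alternatives other than leaving out a library, 1048 values kept their call, 18 gained one, 47 lost one and 0 turned direction. The scaling mattered most, with 20 of the 47 losses without TMM, where 5 promoters were called from the Pre to Mid, 3 from the Pre to Dep, 1 from the Pre to Post and 0 from the Mid to Dep, the Pre to Fed and the Pre to HiT. Without TMM the median of all promoters shifted to −0.12 from the Fed to Mid, 0.11 from the HiT to Mid, −0.18 from the Pre to Dep and −0.13 from the Pre to HiT, and 1458 of all promoters were called from the Pre to Mid in place of 3253. Of all promoters, the fit without TMM called 9 from the Mid to Dep, 6 from the Pre to Fed and 21 from the Pre to Post. It called 1444 from the Pre to Dep and 1974 from the Pre to HiT. When only the compared groups were fitted, 0 clock promoters were called from the Mid to Dep and 4 from the Pre to HiT, against 2 and 3732 of all promoters. With all libraries and experiment as a term, 0 were called from the Mid to Dep and 2 from the Pre to Fed, against 186 and 1448 of all promoters. With tags summed per gene, 1 of 10 genes was called from the Pre to HiT. That is no change in genes, because the 2 promoters called there were both of *Per1*. With the replicate number as a block, 4 were called from the Fed to Mid, 0 from the Mid to Dep, 1 from the Pre to Post, 0 from the Pre to Fed and 1 from the Pre to HiT. That fit held only the compared groups and the replicate numbers found in both, which left out part of the Mid mice. In it, 1049 of all promoters were called from the Fed to Mid in place of 3797. It called 0 of all promoters from the Mid to Dep, 61 from the Pre to Post, 187 from the Pre to Fed and 3001 from the Pre to HiT. Same-numbered mice did not deviate together: the correlations of pairs ran from −0.59 to 0.46, and a mouse was closest to its own number in at most 2 of 4 cases, so that the numbers were not taken as pairs. In experiment #2 no paired analysis was possible because Mid, which is part of both comparisons, shares no number with Pre or Post. There, lane as a term gave 4 calls from the Mid to Post, of which that of *Clock* was gained, against 485 of all promoters. Leaving out each library in turn gave 8 to 10 calls from the Pre to Mid, 7 to 9 from the Mid to Post, 5 to 7 from the HiT to Mid, 7 to 9 from the Fed to Mid, 0 to 1 from the Mid to Dep, 2 to 4 from the Pre to Post, 0 to 2 from the Pre to Fed, 1 to 3 from the Pre to HiT and 5 to 7 from the Pre to Dep. In experiment #2 it gave 2 to 6 from the Pre to Mid and 7 to 8 from the Mid to Post. The Per1 promoter ratio with a pseudocount of 5 was 0.42 (Pre to Mid) and −0.54 (Mid to Post). Leaving out a library gave 0.48 to 0.68 from the Pre to Mid, −0.91 to −0.47 from the Mid to Post, 0.11 to 0.31 from the HiT to Mid, 0.19 to 0.30 from the Fed to Mid and −0.24 to 0.09 from the Mid to Dep. Covariation without TMM reached 0.78 for *Arntl* and *Clock* and 0.48 for *Per1* and *Per2*, and in Mid alone 0.70 for *Nr1d1* and *Nr1d2* and 0.71 for *Per2* and *Per3* did not pass. Leaving out a library in experiment #1 gave −0.39 to −0.21 for *Arntl* and *Per2*, 0.16 to 0.46 for *Arntl* and *Clock* and 0.23 to 0.44 for *Per1* and *Per2*, and in experiment #2 −0.21 to 0.74 for *Arntl* and *Clock*, −0.021 to 0.90 for *Per1* and *Per2* and 0.14 to 0.75 for *Per2* and *Per3*. The causes of these changes were not tested. Depth limits the downstream *Per1* promoter most, with 13 tags in its lowest library of experiment #1.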
